A study of Mus musculus with 10 samples.

Results

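The potassium channel gene family was measured in perfused whole brains from 5 Aldara mice and 5 controls, which had an aqueous cream instead of Aldara on the skin, with 1 Affymetrix Mouse Gene ST array per mouse. Family members were all genes whose symbol starts with Kcn followed by a further letter, except Kcnj10 and Kcnj13, which mark astrocytes and choroid plexus. Where several probesets (sets of probes that report on the same gene) carried the symbol of a gene, the one with the highest mean over the 10 arrays was taken. This gave 90 members among 19938 genes, in 21 subfamilies. Of the members, 87 are channel or regulator genes and 3 are RNAs of the opposite strand (Kcnd3os, Kcnmb4os1 and Kcnmb4os2). All mice were wild-type C57BL/6 females aged 6 to 8 weeks. The back was shaved in both groups, 80 mg of the cream was applied 5 times at intervals of 24 h, and 24 h after the last application the brains were taken. Aldara holds 5% imiquimod, a ligand of the RNA sensor TLR7, together with vehicle components that the control cream does not share, so that drug and vehicle cannot be told apart here.

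Potassium channels let potassium leave or enter the cell and so set its resting voltage, end each action potential and limit repetitive firing. The family divides by structure and by what opens the pore. Voltage-gated channels (Kcna, Kcnb, Kcnc, Kcnd, Kcnh, Kcnq) open on depolarisation. Modifier subunits (Kcnf, Kcng, Kcns, Kcnv) form no channel on their own but join and alter voltage-gated ones. Calcium-activated channels and their relatives (Kcnma, Kcnn, Kcnt, Kcnu) couple the pore to ions inside the cell, inward rectifiers (Kcnj) hold the resting potential or answer to G proteins and to ATP, and tandem-pore-domain channels (Kcnk) carry the background leak. Accessory genes (Kcnab, Kcne, Kcnip, Kcnmb) encode partners that set the gating and surface level of the pores. Most of these genes are used by neurons, whereas a few are known from leukocytes, microglia or vessel walls.

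All values are log2 RMA values, in which a difference of 1 is a doubling, and differences are Aldara minus control. Standard errors and adjusted p-values come from limma, fitted over all 23410 probesets with a gene symbol, with Benjamini-Hochberg adjustment, and a gene passed at an adjusted p under 0.05. The 10 arrays had median values of 8.16 to 8.19 for Aldara mice and 8.10 to 8.14 for control mice, and arrays of different groups correlated at 0.980 to 0.988, against 0.995 to 0.999 among Aldara and 0.998 to 0.999 among control mice. The marker genes of brain tissue were present at high values, with a mean over 8 neuronal markers of 11.81 to 11.85 in Aldara mice, against 11.91 to 11.96 in controls.

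Sequences upstream of a start site are shown for the 2 members with the largest decreases (Kcnip2 and Kcnj4), for Kcnf1, another large decrease with a different base composition, and for Kcnn4, the member with the largest increase among those with a RefSeq promoter entry, which 68 of the 90 members had. Each is the 250 bases before the start site, from RefSeq (build GRCm38.p6), written 5′ to 3′ on the strand of the gene, and capitals mark the GC box, GGGCGG on either strand, to which Sp1 factors bind.
Kcnn4, chr7:24370013-24370262, plus strand: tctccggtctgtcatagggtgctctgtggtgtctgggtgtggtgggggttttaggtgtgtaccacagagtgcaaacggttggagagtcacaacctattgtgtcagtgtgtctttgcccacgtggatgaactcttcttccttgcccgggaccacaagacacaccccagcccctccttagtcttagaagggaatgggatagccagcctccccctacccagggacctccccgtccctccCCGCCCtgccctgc
Kcnip2, chr19:45816064-45816313, minus strand: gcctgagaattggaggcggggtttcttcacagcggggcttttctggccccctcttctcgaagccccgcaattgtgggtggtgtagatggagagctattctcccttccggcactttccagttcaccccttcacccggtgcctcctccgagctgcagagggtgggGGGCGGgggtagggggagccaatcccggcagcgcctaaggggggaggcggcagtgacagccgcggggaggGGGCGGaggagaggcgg
Kcnj4, chr15:79505242-79505491, minus strand: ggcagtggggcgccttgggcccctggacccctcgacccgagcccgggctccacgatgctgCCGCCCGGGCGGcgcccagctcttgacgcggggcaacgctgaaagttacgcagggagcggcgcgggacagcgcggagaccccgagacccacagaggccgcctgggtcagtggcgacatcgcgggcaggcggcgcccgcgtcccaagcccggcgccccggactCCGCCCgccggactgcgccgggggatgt
Kcnf1, chr12:17176889-17177138, minus strand: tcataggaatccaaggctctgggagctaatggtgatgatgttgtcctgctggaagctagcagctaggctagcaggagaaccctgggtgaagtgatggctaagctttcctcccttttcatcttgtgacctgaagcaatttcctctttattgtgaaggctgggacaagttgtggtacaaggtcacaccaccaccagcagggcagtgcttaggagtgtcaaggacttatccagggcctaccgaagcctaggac
The 4 windows differed in base composition, which for Kcnf1 was a reason to show it and is not a result. That of Kcnn4 held 6 CpG dinucleotides and 1 GC box, that of Kcnip2 15 and 2, that of Kcnj4 35 and 3 (a pair of them adjacent, on opposite strands), and that of Kcnf1 1 and none. Genes may have several start sites, so the 36 members that fell and have an entry gave 52 windows, of which 44.2% held a GC box, against 44.4% of the 36 windows of members that did not pass and 32.7% of all 32841 windows. Of the 5 windows of members that rose, 2 held one. An interferon-stimulated response element was written as GAAA, a pair of free bases and GAAA on either strand. It was in none of the 5 windows of members that rose and in 4 of the 52 of members that fell. It was in 2 of the 36 of members that did not pass and in 2.98% of all windows. The letters GAGGAA on either strand, the core bound by the myeloid factor PU.1, were in 1 of the 5 and in 14 of the 52. They were in 8 of the 36 of members that did not pass and in 23.3% of all. Letters that match a motif describe these windows only.

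Many potassium channel genes were slightly lower in Aldara brains, and a few were higher. Of 90 members, 50 fell (55.6%), 6 rose (6.67%) and 34 did not pass the test. Over all 19938 genes the shares were 22.4% lower and 11.8% higher. The number depended on how the arrays were scaled, and after a shift of all differences to a median of 0, 33 members fell and 7 rose, where 12.6% of all genes fell and 15.4% rose. In 40 of the 50 even the highest Aldara value was below the lowest control value. In each of the 6 that rose even the lowest Aldara value exceeded the highest control value. Over all genes, 3162 of the 4475 that fell and 1948 of the 2350 that rose had no overlap either. Thus 40 and 6 of the 90 members, against 15.9% and 9.77% of all 19938 genes, fell or rose without overlap. The decreases were small. None reached 1.5-fold, a size that 0.0602% of all genes reached downwards, and the largest, that of Kcnip2, was 21.1%. Kcnk6 and Kcnn4 rose by over 1.5-fold, as did 3.08% of all genes. The median difference over members was -0.12, against -0.046 over all genes.

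**Figure D1:**
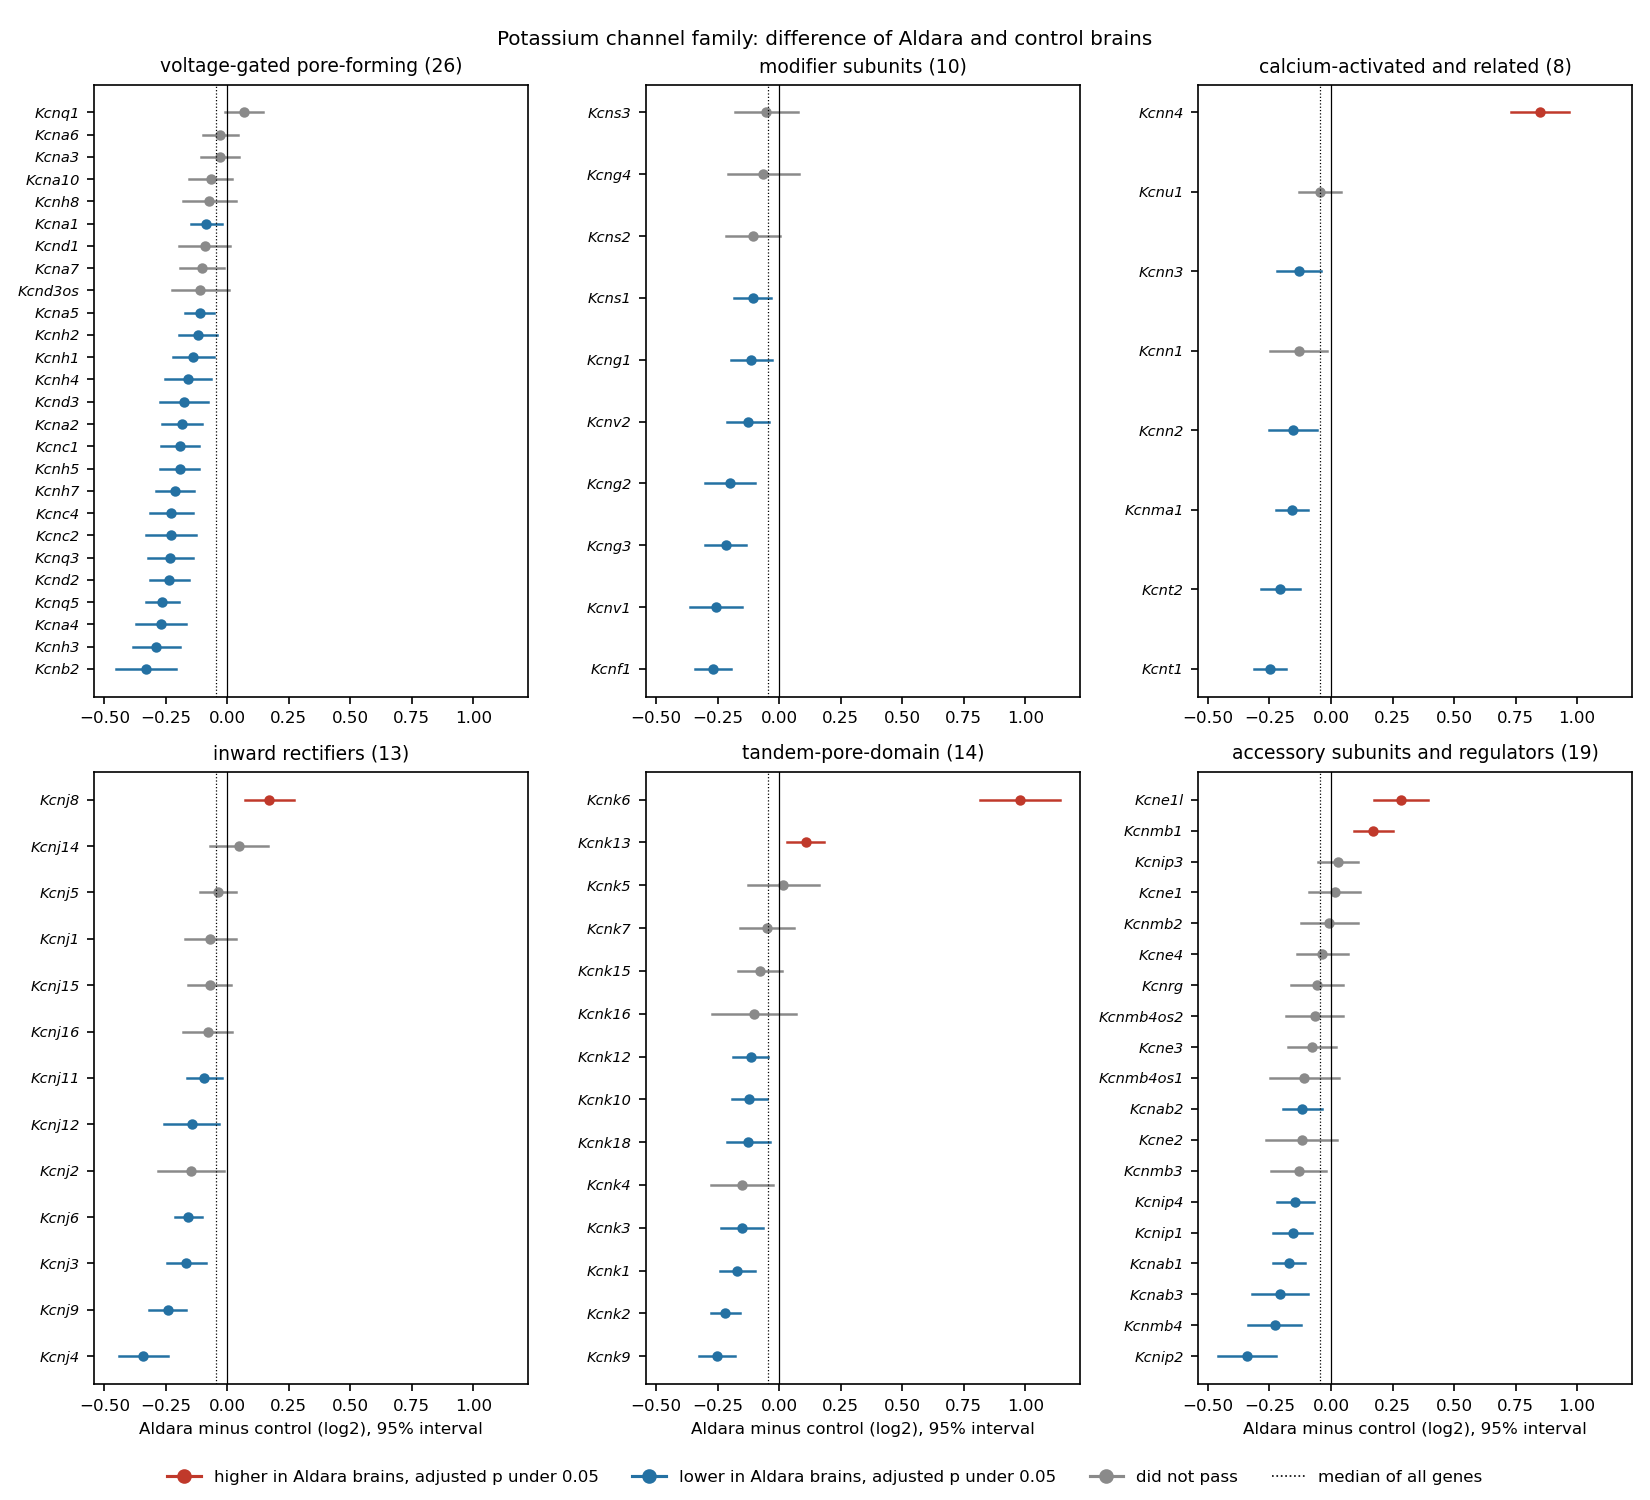
Difference between Aldara and control brains (log2, Aldara minus control) for each of the 90 members, in a panel per role, as points with 95% intervals from limma; red passed as higher, blue passed as lower, grey did not pass, and the dotted line is the median of all genes at -0.046. Blue points make up most of the voltage-gated and modifier panels, and the red points of Kcnk6 and Kcnn4 lie apart at 0.98 and 0.85.

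The decrease was present in every Aldara mouse. The median over members of the difference from the control mean was -0.13, -0.12, -0.13, -0.15 and -0.14 in Aldara replicates 1 to 5, and it lay between -0.028 and 0.019 in controls. Over all genes the same measure was -0.062 to -0.028 in Aldara mice, against -0.015 to 0.0067 in controls. Voltage-gated channels had medians of -0.19 to -0.13 in Aldara mice against -0.035 to 0.041 in controls, the modifier subunits of -0.18 to -0.12 in Aldara mice against -0.044 to 0.066 in controls, and the calcium-activated group of -0.18 to -0.10 in Aldara mice against -0.046 to 0.054 in controls. The tandem-pore-domain channels varied most among Aldara mice, at -0.048 for Aldara replicate 2 and -0.17 for Aldara replicate 5. In none of the 6 role groups did the medians of the 2 groups of mice overlap, and neither did those over all genes.

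**Figure D2:**
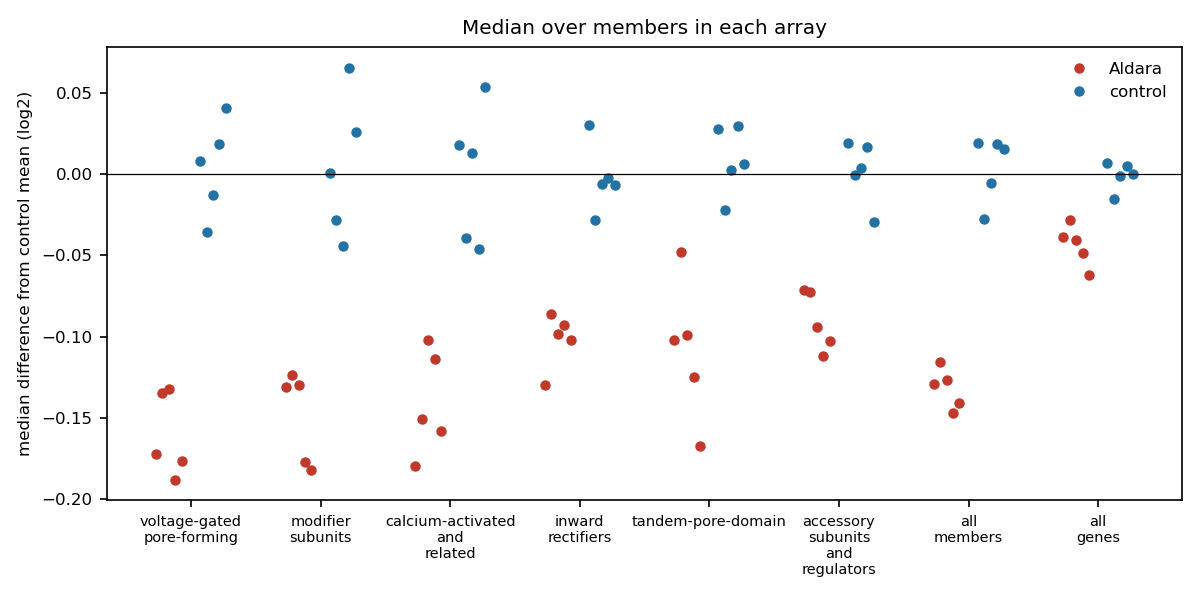
Median over the members of each role group of the log2 difference from the control mean, with 1 point per array, for Aldara mice (red, left) and control mice (blue, right), beside the same for all members and all genes. Aldara points lie below control points in each column, with -0.15 to -0.12 for all members and -0.062 to -0.028 for all genes.

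Most decreases lay among the members with brighter probesets. Of 56 members with a mean at or above the median of all probesets tested, a log2 value of 8.15, 46 fell (82.1%) and 1 rose, whereas 33.3% of all genes in that range fell. Among the 34 members with dimmer probesets 4 fell (11.8%) and 5 rose, and 11.7% of all genes in that range fell. The share of all genes that rose was not counted by range, and over both ranges together it was 11.8%. The median difference was -0.17 over the brighter and -0.069 over the dimmer members. Brightness depends on the probes as well as on the transcript, and whether a dim probeset stood above background is not known from these values.

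**Figure D3:**
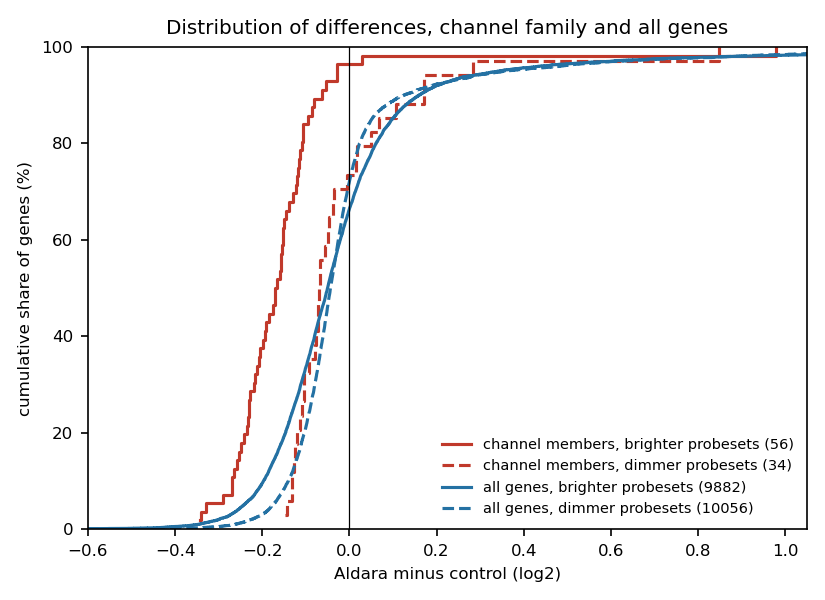
Cumulative share of genes (%) against the log2 difference, Aldara minus control, for members (red) and all genes (blue), with solid lines for probesets at or above the median value and dashed lines for those below it. The solid red line of 56 brighter members runs to the left of the others, with a median of -0.17, while the dashed red line of 34 dimmer members runs close to the dashed line of all genes.

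Most markers of neurons were lower as well. Their median difference was smaller than that of the channel genes, and this contrast was not tested. Of 8 neuronal markers 6 fell, with a median difference of -0.095, and the list means given above did not overlap between the groups. Over all genes 22.4% fell and 11.8% rose, and of all genes with brighter probesets 33.3% fell. The neuronal splicing factor gene Rbfox3 had a difference of -0.19 and Snap25, of the synaptic release machinery, one of -0.098. Tubb3 was at -0.17, while Nefm, at -0.0087, did not pass. Of 6 astrocyte markers 3 rose and 3 fell, with means of 11.01 to 11.14 in Aldara mice, against 10.81 to 10.88 in controls, and of 4 oligodendrocyte markers 1 rose and 1 fell. In whole brain RNA, fewer cells of a type and less RNA per cell cannot be told apart, and the part of the neuronal markers in the decrease of the channel genes was not tested.

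The largest increases, those of Kcnk6 and Kcnn4, were of genes known from leukocytes and microglia. Kcnk6 encodes a tandem-pore-domain channel that carries potassium out of mouse macrophages during inflammasome activation. Its log2 values were 8.64, 8.85, 8.90, 8.68 and 9.06 in Aldara replicates 1 to 5, against 7.77, 7.78, 7.88, 7.99 and 7.82 in control replicates 1 to 5. Every Aldara mouse was above every control mouse, with Aldara replicate 5 highest, and the difference was 0.98 (standard error 0.075, adjusted p = 1.3e-06), or 1.97-fold. Kcnn4, the intermediate-conductance calcium-activated channel of lymphocytes, red cells and microglia, had values of 7.99, 7.74, 7.73, 7.65 and 7.88 in Aldara mice, against 6.96, 6.93, 6.92, 6.97 and 6.97 in controls. Control mice were tightly grouped and Aldara replicate 1 was highest, and the difference was 0.85 (standard error 0.055, adjusted p = 2.7e-07), or 1.80-fold. Its sister genes of the small-conductance type, which shape the pause after an action potential in neurons, were not higher. Kcnn2 and Kcnn3 fell, by 0.15 and 0.13 on the log2 scale, and Kcnn1 had a difference of -0.13 that did not pass.
All 6 markers of leukocytes and macrophages rose beside Kcnk6 and Kcnn4. Their mean over the list was 9.64 to 9.98 in Aldara mice, against 7.22 to 7.35 in controls, and Ptprc, the CD45 gene of all leukocytes, had a difference of 3.05. Of 5 microglial markers 3 rose and Gpr34 fell, with means of 8.68 to 8.80 in Aldara mice, against 8.27 to 8.46 in controls. Of 4 T cell markers 2 rose and 1 fell, with means of 7.02 to 7.18 in Aldara mice, against 6.93 to 7.08 in controls. The part of these cell types in the rise of Kcnk6 and Kcnn4 was not tested.
Not every channel known from leukocytes was higher. Kcnma1, counted among the members known from leukocytes as well as from neurons, fell by 0.16 with no overlap between the groups. A further, dim probeset of Kcnma1 did not pass. Kcnk13, which encodes the resting potassium channel of microglia, had values of 7.997, 8.002, 8.004, 7.99 and 8.02 in Aldara mice, against 7.98, 7.91, 7.89, 7.79 and 7.91 in controls, a difference of 0.11 (standard error 0.034, adjusted p = 0.029). The gap between the groups was narrow, at 7.99 in the lowest Aldara mouse and 7.98 in the highest control, and the call was lost with the arrays centred (adjusted p = 0.17), with quantile normalisation (adjusted p = 0.29), with an intensity trend (adjusted p = 0.055), and without Aldara replicate 1, 3 or 5 or control replicate 3 or 4 (adjusted p = 0.051 to 0.055). Kcna3, the voltage-gated channel of T cells and activated microglia, had values of 9.31 to 9.46 in Aldara mice, against 9.40 to 9.49 in controls, a difference of -0.030 that did not pass, with a 95% interval of -0.11 to 0.047. Neither Kcnj2, an inward rectifier of microglia and of neurons, nor Kcne3, an accessory subunit, passed, with differences of -0.15 and -0.078. Kcna5, also described in microglia, fell by 0.11 from a dim probeset, at 6.42 to 6.52 in Aldara mice, against 6.54 to 6.60 in controls, and it no longer passed after all differences were shifted to a median of 0 (adjusted p = 0.067).
The remaining increases were those of an accessory gene and of genes known from vessels. Kcne1l, whose product inhibits the channel encoded by Kcnq1, had values of 7.59, 7.60, 7.82, 7.70 and 7.84 in Aldara mice, against 7.43, 7.44, 7.40, 7.47 and 7.39 in controls. Aldara replicates 3 and 5 were highest, and the difference was 0.28 (standard error 0.050, adjusted p = 0.001). For Kcnmb1, the beta subunit that raises the calcium sensitivity of large-conductance channels in smooth muscle, the values were 7.11, 7.13, 7.18, 7.15 and 7.15 in Aldara mice, against 7.004, 7.07, 6.95, 6.88 and 6.96 in controls, a difference of 0.17 (standard error 0.036, adjusted p = 0.0031). Kcnj8, the pore of the ATP-sensitive channel of pericytes and smooth muscle, had 8.14, 8.08, 8.11, 8.12 and 8.28 in Aldara mice, against 8.06, 8.04, 7.97, 7.92 and 7.88 in controls. The difference of Kcnj8 was 0.17 (standard error 0.046, adjusted p = 0.013), and it no longer passed with quantile normalisation (adjusted p = 0.063). Of 4 pericyte markers only Anpep rose, by 0.57, and Pdgfrb, Rgs5 and Cspg4 did not pass, at 0.058, 0.095 and 0.013, with means over the 4 of 8.73 to 8.82 in Aldara mice, against 8.52 to 8.66 in controls. Of 4 endothelial markers Cldn5 and Pecam1 rose, with means over the list of 9.71 to 9.91 in Aldara mice, against 9.32 to 9.51 in controls. The part of vessel cells in these increases was not tested. Of 4 choroid plexus markers all fell, whereas Kcne2, an accessory subunit known from choroid plexus, had a difference of -0.12 that did not pass.

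**Figure D4:**
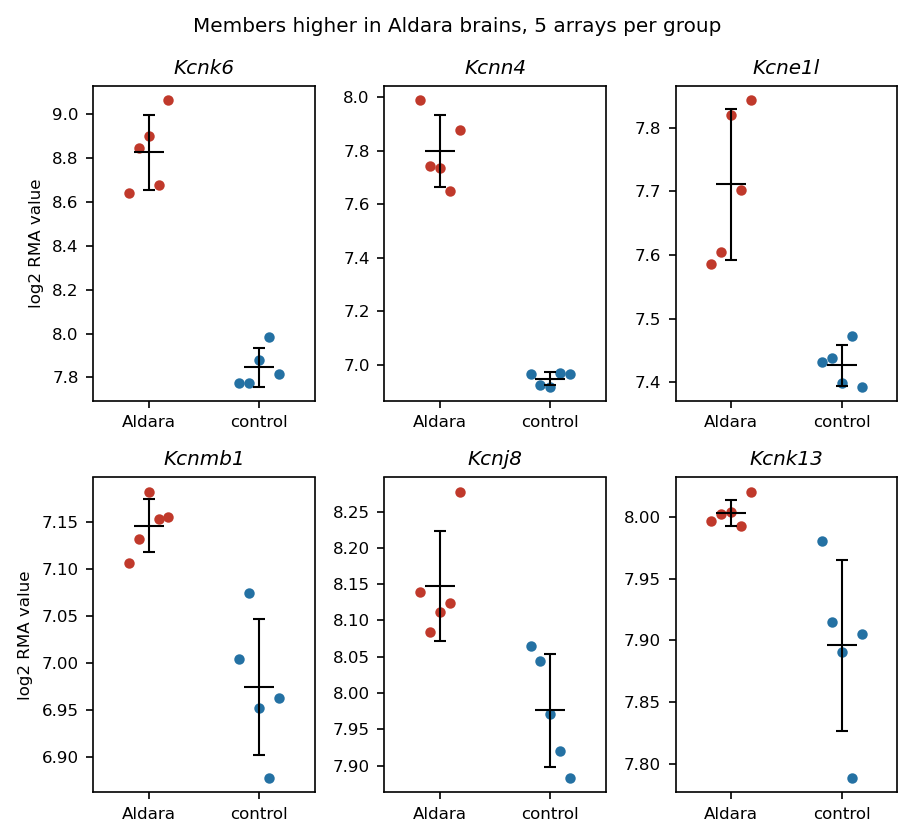
Log2 RMA values of the 6 members that rose, with 1 point per array for Aldara mice (red, left) and control mice (blue, right) and black bars for the mean and SD (n = 5 each); each panel has its own axis, which does not start at 0. The groups are far apart for Kcnk6 (means of 8.83 in Aldara mice and 7.85 in controls) and Kcnn4 (7.80 in Aldara mice and 6.95 in controls), and nearly touch for Kcnk13.

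Among the voltage-gated channels, counted with the opposite-strand RNA Kcnd3os, 18 of 26 members fell and none rose, with a median difference of -0.17. Of all genes 22.4% fell and 11.8% rose. Kcnb2, which encodes a delayed rectifier of neurons, had the largest decrease of them, with 9.12, 9.08, 9.20, 9.16 and 9.19 in Aldara mice, against 9.36, 9.49, 9.65, 9.35 and 9.56 in controls, a difference of -0.33 (standard error 0.056, adjusted p = 0.00077). The control mice spread more than the Aldara mice but did not overlap them. Kcnh3, of the ether-a-go-go type and enriched in forebrain, had 9.52, 9.53, 9.56, 9.44 and 9.41 in Aldara mice, against 9.73, 9.70, 9.75, 9.82 and 9.90 in controls, or 18.2% less. In the same subfamily Kcnh1, Kcnh2, Kcnh4, Kcnh5 and Kcnh7 fell by 0.12 to 0.21, of which Kcnh1, Kcnh2 and Kcnh4 no longer passed after a shift of all differences to a median of 0 (adjusted p = 0.059 to 0.12), and Kcnh8 had a difference of -0.073 that did not pass. A second probeset of Kcnh8, not used for the counts, passed as lower at -0.13 (adjusted p = 0.029).
The Kcnq channels carry the M-current, a slow brake on firing that muscarinic receptors release. Kcnq5 was one of the most evenly lowered members, with 10.08, 10.12, 10.12, 10.09 and 10.07 in Aldara mice, against 10.34, 10.31, 10.35, 10.32 and 10.46 in controls, a difference of -0.26 (standard error 0.031, adjusted p = 5.5e-05). For Kcnq3 the values were 10.12, 10.17, 10.11, 10.03 and 9.99 in Aldara mice, against 10.34, 10.24, 10.26, 10.34 and 10.40 in controls, a difference of -0.23 (standard error 0.042). The 2 neuronal members measured thus fell by 16.7% and 14.9%. Kcnq1, a channel best known from heart and epithelia, had 6.93 to 7.01 in Aldara mice, against 6.80 to 6.99 in controls, a difference of 0.068 that did not pass.
The Kcnc channels allow fast spiking, as in parvalbumin interneurons, and all 3 measured members fell. Kcnc2 had 9.87, 9.85, 9.995, 9.76 and 10.02 in Aldara mice, against 10.13, 10.12, 10.10, 10.13 and 10.15 in controls, a difference of -0.23 (standard error 0.046). Aldara mice varied and control mice hardly did. Kcnc1 and Kcnc4 had differences of -0.19 (standard error 0.035) and -0.23 (standard error 0.040).
The Kcna channels act mostly in axons and terminals, and 4 of 8 members fell. Kcna4, an inactivating channel, had 8.99, 9.05, 9.19, 9.01 and 9.02 in Aldara mice, against 9.28, 9.28, 9.33, 9.26 and 9.45 in controls, a difference of -0.27 (standard error 0.046, adjusted p = 0.00085). Aldara replicate 3 was closest to the control mice. Kcna2, the main axonal member, had 11.22, 11.20, 11.18, 11.12 and 11.08 in Aldara mice, against 11.39, 11.33, 11.25, 11.36 and 11.39 in controls, a difference of -0.18 (standard error 0.037), and a second probeset of the gene fell by 0.19. For Kcna1, its partner in myelinated axons, the difference was smaller, at -0.085 (standard error 0.030, adjusted p = 0.044), the groups overlapped, and the call was lost after quantile normalisation (adjusted p = 0.06), after a shift of all differences to a median of 0 (adjusted p = 0.32) and without any single array other than replicate 2 of either group. Kcna6, Kcna7 and Kcna10 did not pass.
Kcnd2 and Kcnd3 carry the A-type current of dendrites, which damps back-propagating spikes. Kcnd2 had 11.18, 11.26, 11.24, 11.29 and 11.15 in Aldara mice, against 11.49, 11.47, 11.50, 11.37 and 11.47 in controls, a difference of -0.24 (standard error 0.036, adjusted p = 0.00037). Kcnd3 fell by 0.18. Kcnd1, at -0.092, did not pass, and neither did the opposite-strand RNA Kcnd3os, at -0.11.

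Of the 19 accessory subunits and regulators, 7 fell, 2 rose and 10 did not pass, where 22.4% of all genes fell and 11.8% rose. The opposite-strand RNAs Kcnmb4os1 and Kcnmb4os2 were counted with them. Most partners of the dendritic A-type channel were lower, as were its pores Kcnd2 and Kcnd3. Kcnip2, a calcium-binding subunit of the Kcnd channels, had the largest decrease of the family, with 9.28, 9.39, 9.43, 9.37 and 9.21 in Aldara mice, against 9.78, 9.67, 9.53, 9.67 and 9.74 in controls, a difference of -0.34 (standard error 0.054, adjusted p = 0.00044). Kcnip1 and Kcnip4 fell by 0.16 and 0.15. The exception was Kcnip3, which also acts as a transcriptional repressor in the nucleus, with 11.80 to 11.94 in Aldara mice, against 11.79 to 11.87 in controls, a difference of 0.029 with a 95% interval of -0.051 to 0.11. Dpp6 and Dpp10, membrane partners of the same channels outside the family, had differences of -0.19 and -0.18. Both passed.
The beta subunits of Kcna channels, Kcnab1, Kcnab2 and Kcnab3, fell as well, by 0.17, 0.12 and 0.21. For Kcnab2 and Kcnab3 the groups overlapped, and Kcnab2 no longer passed after a shift of all differences to a median of 0. Genes of proteins that anchor Kcna channels were among those that fell outside the family, with Cntnap2 at -0.16, Adam22 at -0.16, Dlg2 at -0.18 and Dlg4 at -0.30. In the same list Cntn2 fell by 0.12 with overlap between the groups, and Lgi1, at -0.048, did not pass. In the whole list of 19 measured channel partners outside the family, 12 fell and 1 rose, with a median of -0.12. Over all genes 22.4% fell and 11.8% rose, and of all genes with brighter probesets 33.3% fell. Of 5 Kcne genes, Kcne1l rose and the rest did not pass, and Kcnrg, a regulator of Kcna assembly, had a difference of -0.057.

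**Figure D5:**
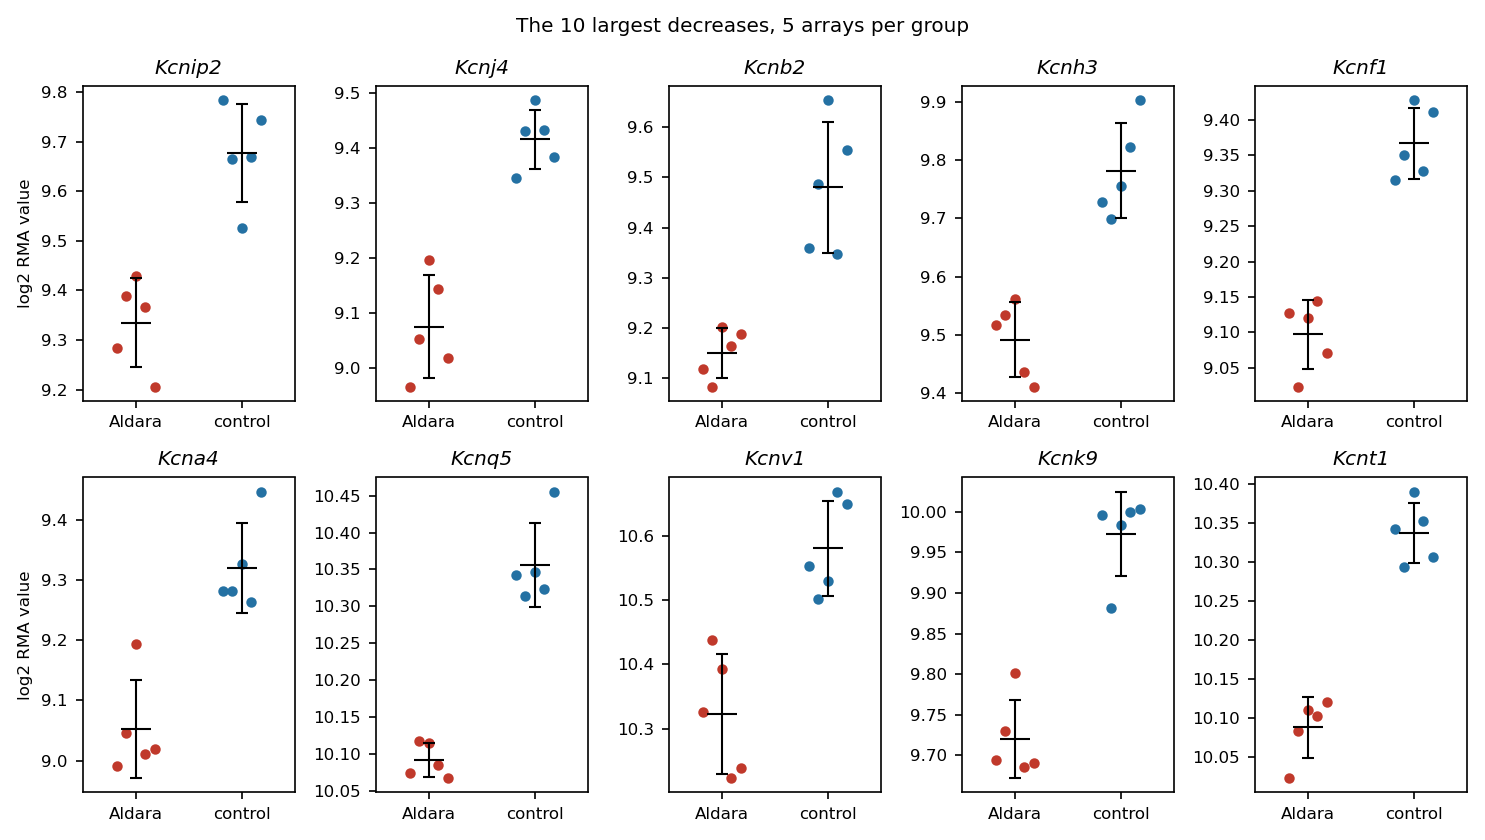
Log2 RMA values of the 10 members with the largest decreases among those without overlap between groups, with 1 point per array for Aldara mice (red, left) and control mice (blue, right) and black bars for the mean and SD (n = 5 each); each panel has its own axis, which does not start at 0. All red points lie below all blue points, with differences of -0.34 for Kcnip2 to -0.25 for Kcnt1.

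Of the modifier subunits, 7 of 10 fell and none rose, where 22.4% of all genes fell and 11.8% rose. Kcnf1 had 9.13, 9.02, 9.12, 9.14 and 9.07 in Aldara mice, against 9.32, 9.35, 9.43, 9.33 and 9.41 in controls, a difference of -0.27 (standard error 0.034, adjusted p = 8.6e-05). Kcnv1, which is largely restricted to brain, had 10.33, 10.44, 10.39, 10.22 and 10.24 in Aldara mice, against 10.55, 10.50, 10.53, 10.67 and 10.65 in controls, a difference of -0.26 (standard error 0.049). In neither gene did the groups overlap. For Kcnv1 the gap was narrow, at 10.44 in the highest Aldara mouse and 10.50 in the lowest control. Kcng3, Kcng2 and Kcng1 fell by 0.22, 0.20 and 0.11, and Kcnv2 and Kcns1 by 0.13 and 0.11, whereas Kcng4, Kcns2 and Kcns3 did not pass. Only 4 of them fell after a shift of all differences to a median of 0, where 12.6% of all genes fell. Without Aldara replicate 4, 4 of them fell, and the share of all genes was not counted for that fit. Kcns1 was lost under both (adjusted p = 0.19 and 0.08).

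Of the calcium-activated channels and their relatives, 5 of 8 fell and Kcnn4 rose, where 22.4% of all genes fell and 11.8% rose. Kcnt1, a sodium-activated channel in which gain-of-function mutations cause infantile epilepsy in humans, had 10.02, 10.08, 10.11, 10.10 and 10.12 in Aldara mice, against 10.34, 10.29, 10.39, 10.35 and 10.31 in controls, a difference of -0.25 (standard error 0.030, adjusted p = 5.4e-05). Its relative Kcnt2 fell by 0.21. For both the groups did not overlap. Kcnma1, the pore of the large-conductance calcium-activated channel, had 11.07, 11.03, 11.10, 11.10 and 11.02 in Aldara mice, against 11.24, 11.17, 11.23, 11.18 and 11.27 in controls, a difference of -0.16 (standard error 0.030). A second, dim probeset of Kcnma1 did not pass (-0.046, adjusted p = 0.67), and the mean of both no longer passed (adjusted p = 0.14). The beta subunits of this channel went different ways. Kcnmb4, the neuronal one, had 8.84, 8.98, 9.06, 9.002 and 9.11 in Aldara mice, against 9.24, 9.19, 9.33, 9.21 and 9.17 in controls, a difference of -0.23 (standard error 0.049), while Kcnmb1, of smooth muscle, rose by 0.17. Kcnmb2 and Kcnmb3 did not pass, at -0.0065 and -0.13, and neither did Kcnu1, a sperm channel, at -0.046. The opposite-strand RNAs Kcnmb4os1 and Kcnmb4os2 did not pass either. After a shift of all differences to a median of 0, Kcnn2 and Kcnn3 no longer passed. That left 3 of the 8 channels lower, where 12.6% of all genes fell.

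Of the inward rectifiers, 6 of 13 fell and Kcnj8 rose, where 22.4% of all genes fell and 11.8% rose. Kcnj4, which holds the resting potential of forebrain neurons, had 8.97, 9.05, 9.20, 9.14 and 9.02 in Aldara mice, against 9.35, 9.43, 9.49, 9.43 and 9.38 in controls, a difference of -0.34 (standard error 0.045, adjusted p = 0.00013). The 3 neuronal subunits that G proteins open, and through which GABA-B and opioid receptors inhibit, were all lower. Kcnj9 had 9.06, 8.98, 9.03, 9.09 and 9.05 in Aldara mice, against 9.39, 9.25, 9.27, 9.26 and 9.25 in controls, and Kcnj6 had 8.38, 8.41, 8.42, 8.43 and 8.39 in Aldara mice, against 8.60, 8.53, 8.55, 8.56 and 8.58 in controls. Kcnj3 fell by 0.17. Kcnj9 was 15.4% and Kcnj6 10.4% lower, with no overlap for any of these. Kcnj5, the partner of Kcnj3 in heart, had a difference of -0.038 that did not pass.
The ATP-sensitive channel has 2 pore genes in the family, and each pairs with a sulphonylurea receptor, not always the same one. Kcnj11, the pore of neurons and pancreatic beta cells, fell by 0.095. Its values were 8.42, 8.56, 8.52, 8.56 and 8.54 in Aldara mice, against 8.64, 8.59, 8.62, 8.58 and 8.64 in controls. The receptor gene Abcc8, which pairs with it in these cells, fell by 0.19. Kcnj8 and Abcc9, the pair of pericytes and smooth muscle, rose by 0.17 and 0.16. For Abcc9 the adjusted p was 0.044 and the groups overlapped, with control replicate 1 at 8.07 and Aldara replicate 2 at 8.05. Whether the 2 pairs differ was not tested, and the call of Kcnj11 (adjusted p = 0.044) was lost after a shift of all differences to a median of 0, with an intensity trend, and without any single array other than Aldara replicate 2, Aldara replicate 4 or control replicate 4. Kcnj12 fell by 0.14, with overlap between the groups. Kcnj1, Kcnj14, Kcnj15 and Kcnj16 did not pass.

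Of the tandem-pore-domain channels, 7 of 14 fell, and Kcnk6 and Kcnk13 rose, where 22.4% of all genes fell and 11.8% rose. Kcnk9, an acid-sensitive leak channel of neurons such as cerebellar granule cells, had 9.69, 9.73, 9.80, 9.69 and 9.69 in Aldara mice, against 9.996, 9.88, 9.98, 10 and 10.003 in controls, a difference of -0.25 (standard error 0.034, adjusted p = 0.00015). Kcnk2, a channel opened by stretch and by fatty acids, had 8.70, 8.76, 8.76, 8.73 and 8.78 in Aldara mice, against 8.95, 8.93, 8.95, 8.96 and 9.02 in controls, a difference of -0.22 (standard error 0.027, adjusted p = 8.1e-05). Mice within a group were close to each other for Kcnk2 and the groups were well apart. Kcnk1 fell by 0.17, Kcnk3 by 0.15, Kcnk10 by 0.12, Kcnk12 by 0.12 and Kcnk18, from a dim probeset, by 0.13. Kcnk4, Kcnk5, Kcnk7, Kcnk15 and Kcnk16 did not pass, with differences of -0.15 to 0.017. After a shift of all differences to a median of 0, 3 members of this group fell, since Kcnk3, Kcnk10, Kcnk12 and Kcnk18 no longer passed. The shift left 12.6% of all genes lower.

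The 17 members that no longer passed as lower after the shift to a median of 0 were Kcna1, Kcna5, Kcnab2, Kcng1, Kcnh1, Kcnh2, Kcnh4, Kcnj11, Kcnj12, Kcnk3, Kcnk10, Kcnk12, Kcnk18, Kcnn2, Kcnn3, Kcns1 and Kcnv2, and Kcnq1 passed as higher. With only the brighter probesets kept and tested, 47 fell and 1 rose, where 38.1% of all genes fell and 15.8% rose. After each array was centred to the same median, 63 fell and 5 rose, where 43.4% of all genes fell and 9.51% rose. Without any 1 array, 43 to 48 fell and 5 or 6 rose, and the shares of all genes were not counted for these fits. Among members that fell, the call was lost without any of 7 single arrays for Kcng1 and Kcnj12, of 5 for Kcnab2, Kcnk18, Kcnn3 and Kcns1, and of 3 for Kcnv2. There were 32 members that fell under each of 19 alternatives, all but the filter on dim probesets. Among them were Kcnip2, Kcnj4, Kcnb2, Kcnh3, Kcnf1, Kcna4, Kcnq5, Kcnv1, Kcnk9 and Kcnt1. A further 4 rose under each, Kcnk6, Kcnn4, Kcne1l and Kcnmb1. How many of all genes kept a call under each alternative was not counted, so these numbers have no baseline.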

How the data were processed

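Whole-brain RNA of 10 mice was hybridised to 1 Affymetrix array per mouse. The authors deposited log2 values per probeset, normalised by RMA (RMA 16 in GeneSpring GX, by the methods; the submitters' processing notes name RMA). The version of GeneSpring GX is not given in the sources used here, and neither is whether a probeset stood above background. All 28856 probesets were read, and the 23410 with at least 1 gene symbol in the platform annotation were tested with limma 3.58.1 (R 4.3.3), lmFit and eBayes on group alone, with Benjamini-Hochberg adjustment. All 90 members matched the RefSeq gene table. Only 5 arrays per group limit the precision.

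A second probeset of 3 members was kept out of the counts. A call was an adjusted p under 0.05. Genes named in full were the 6 that rose, the 10 largest decreases without overlap between groups, the member of each subfamily with the smallest p, and members known from leukocytes, microglia, neurons or choroid plexus. Values of further members were picked after they were seen. The members and the lists of markers and partners were chosen with earlier results of these data known. Alternatives were other scalings, other probeset filters, other variance models, the methods' t-test, array weights, a replicate block, means of probesets and leaving out each array. The pipeline was tested on simulated data.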

Additional observations from a re-analysis of the deposited data

Results flagged for a closer look

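In 12 of 180 groups of 5 mice (90 members in 2 groups), 1 mouse lay far from the rest of its group by Dixon's test, which chance does in about 1 in 20 groups. Among Aldara mice, Kcna3 was 9.31 in replicate 4 (9.44 to 9.46 in the others), and without that mouse the group lies within the range of the control mice. Kcna4 was 9.19 in replicate 3 (8.99 to 9.05 in the others) and Kcnmb4os2 7.43 in the same mouse (7.28 to 7.31). In replicate 5, Kcnj8 was 8.28 (8.08 to 8.14) and Kcnk7 6.88 (7.05 to 7.11).

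Among control mice, replicate 1 was high for Kcnj9, at 9.39 (9.25 to 9.27 in the others), and for Kcnj15, at 6.80 (6.72 to 6.74). Replicate 2 was low for Kcnk9, at 9.88 (at least 9.98 in the others). Kcne2 was 7.70 in replicate 3 (7.46 to 7.50). Replicate 4 was low for Kcnd2, at 11.37 (11.46 to 11.50), and high for Kcns1, at 8.71 (8.56 to 8.59). Kcnq5 was 10.46 in replicate 5 (10.31 to 10.35).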

How the results depend on the processing

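Against 50 members lower and 6 higher, 33 were lower after a shift of all differences to a median of 0, and 1 was higher with dim probesets left out, since 5 of the 6 were then not tested. The median difference of -0.12 became -0.17 with centred arrays, -0.14 after quantile normalisation, -0.082 after the shift and -0.17 with brighter probesets only. Leaving out each array in turn gave medians of -0.14 to -0.11, 43 to 48 members lower and 5 to 6 higher. The replicate number as a block left 40 lower and 6 higher, but replicates of the same number correlated at -0.11 to 0.25 and 2 of 5 best with their own number, so that the numbers are not taken as pairs. Signs changed only for members that did not pass. With centred arrays Kcnk5 was -0.031, Kcne1 -0.034 and Kcnip3 -0.020. After the shift, Kcna3 was 0.012, Kcna6 0.013, Kcnj5 0.0033, Kcne4 0.0065 and Kcnmb2 0.035 (0.017 with array weights). Without single arrays Kcne1 ranged from -0.024 to 0.042, Kcnmb2 from -0.057 to 0.021, Kcnk5 from -0.032 to 0.069 and Kcne4 from -0.060 to 0.0080. The methods' t-test with Benjamini-Hochberg adjustment called 47 lower and 6 higher. Shares of all genes were not counted for the block, the t-test or the fits without an array.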
